A study of Canis lupus familiaris with 34 samples.

Results

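Chromatin remodelling and histone modifying genes were taken from the deposited table by symbol, as every row whose name begins with SMARC, ARID, SETD, EZH or DNMT, with KDM, KMT, HDAC, CHD or BRD and a digit, or is TET1, TET2 or TET3. This gave 88 of the 23988 rows. They comprise 13 SMARC, 10 ARID, 15 KDM, 5 KMT, 11 SETD, 10 HDAC, 10 CHD, 6 BRD, 2 EZH, 3 DNMT and 3 TET genes. Of these, 87 had at least 1 FPKM (fragments counted per kilobase of a transcript and adjusted for library size) in at least 2 of the libraries compared and were tested. The exception was ARID3C, which reached at most 0.3002 FPKM in a tumour. HDAC2, BRD2 and KDM4C had no row under their symbols and were not analysed here.

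DNA is wrapped around histones, and the proteins encoded by these genes slide or evict those histones, add or remove chemical marks on them, read the marks, or methylate and demethylate the DNA itself. The BAF complexes, the CHD proteins and the ISWI proteins use ATP to move nucleosomes. SET domain enzymes of the KMT and SETD families and EZH2 add methyl groups to histones, KDM enzymes take them off, HDAC enzymes remove acetyl groups, BRD proteins bind acetylated histones, DNMT enzymes methylate cytosines and TET enzymes oxidise the methyl group as a step towards its removal. Mutated or misexpressed members of these families are known in many tumours, osteosarcoma among them.

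The study sequenced RNA of canine osteosarcoma, a bone cancer whose cells produce bone matrix, in 34 libraries. The labels give 30 libraries of primary bone tumours, 1 of a metastasis (DOS.6M), 2 of cell lines described as grown from earlier primary tumours (OSCA.78 and OSCA.8, each a single culture) and 1 of osteoblasts, the bone-building cells, labelled as a cell line (CNOB). Every label names the Golden Retriever as the breed, while the series' design text speaks of Rottweilers as well, and no treatment, age or sex is given for any group. The libraries titled DOS.46 and DOS.46.2 were averaged and counted once, giving 29 primary tumours. The labels do not say which libraries come from separate animals, so the p-values measure only how these samples spread, and part of that spread may be technical.

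Summed FPKM ran from 479053 to 1418308 per library with a median of 623084, and depth in reads is unknown. Beside the DOS.46 pair, whose deviations from the tumour mean correlated at r = 0.731 across genes, DOS.100 and DOS.32 correlated at 0.844 and DOS.110 and DOS.115 at 0.671, against a median of -0.039 over 435 pairs of libraries. The labels give these as separate tumours, and the counts of genes called in limma were also made with both pairs averaged. The lines and the osteoblast culture lacked the macrophages of the tumours: 14 macrophage genes summed to 2.79 FPKM in the line OSCA.78, 1.82 in OSCA.8 and 25 in the osteoblast culture, against 98.5 to 1597 in the tumours with a median of 685. IBSP, a bone matrix protein made by mature osteoblasts, lay at 0.717 FPKM in OSCA.78, 1.96 in OSCA.8 and 6.95 in the osteoblast culture, below the lowest tumour at 48.6. Summed over 8 bone matrix genes, the osteoblast culture had 16094 FPKM, of which SPARC gave 10515. The tumours had 6862 to 42859 with a median of 15895, OSCA.78 had 3474 and OSCA.8 had 6183. The mean z-score of these genes relative to the tumours, which weighs each gene alike, was -1.58 in the osteoblast culture. It was -2.87 in OSCA.78 and -2.44 in OSCA.8, and each of these lay below the lowest tumour at -1.14. In these bulk libraries fewer cells of a type and less RNA per cell cannot be told apart.

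All but 2 of the chromatin genes had a tumour median of at least 1 FPKM. The tumour median was at least 10 FPKM for 48 of the 88 genes, between 1 and 10 for 38 and below 1 for 2, CHD5 and ARID3C. FPKM is a value per length, which allows levels of different genes to be set side by side. Such comparisons also depend on the transcript models and the masking, which are not known here. The highest tumour medians belonged to KMT2B, a histone methyltransferase of active genes, at 61.9 FPKM (range 40.9 to 101.1), to the ISWI ATPase SMARCA5 at 54.9 (31.7 to 113.6) and to the class II deacetylase HDAC5 at 52.4 (20.1 to 212). CHD3 and CHD4, the ATPases of the NuRD repressor complex, followed at 44.2 and 43.4 FPKM. Bromodomain readers had a median of 22.7 FPKM over the group, BAF subunits 16.5 and histone deacetylases 15.97, while the 6 enzymes of DNA methylation had 3.19. Within that last group the maintenance enzyme DNMT1 stood at 28.5 FPKM and the enzymes that set new methylation were lower, DNMT3A at 5.59 and DNMT3B at 2.11.

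Among the primary tumours these genes varied about as much as other genes. The standard deviation of log2(FPKM + 1), the scale used for every difference and correlation below, had a median of 0.525 over the 87 tested members and 0.541 over all genes. SMARCA1, an X-linked ISWI ATPase, was the single member among the 10% most variable genes. It lay at 0.485 FPKM in DOS.101 and 58.7 in DOS.32, with a median of 20.7 and an SD of 1.02. HDAC9, a class IIa deacetylase, had an SD of 0.92 and ran from 0.702 to 16.5 FPKM around a median of 6.44. KDM6B, a demethylase that opposes EZH2, had an SD of 0.91 and ran from 1.05 to 27 FPKM, and EZH2, the methyltransferase of the Polycomb complex PRC2, had an SD of 0.90 and ran from 3.03 to 39.9 FPKM. KMT2A (SD 0.87, 0.553 to 12.8 FPKM), KMT2D (SD 0.80, 0.305 to 16.03 FPKM) and the DNA-binding cofactor ARID5B (SD 0.77, 0.988 to 19.5 FPKM) came next. At the other end, 30 members differed by less than 5-fold between the lowest and the highest tumour.

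**Figure D1:**
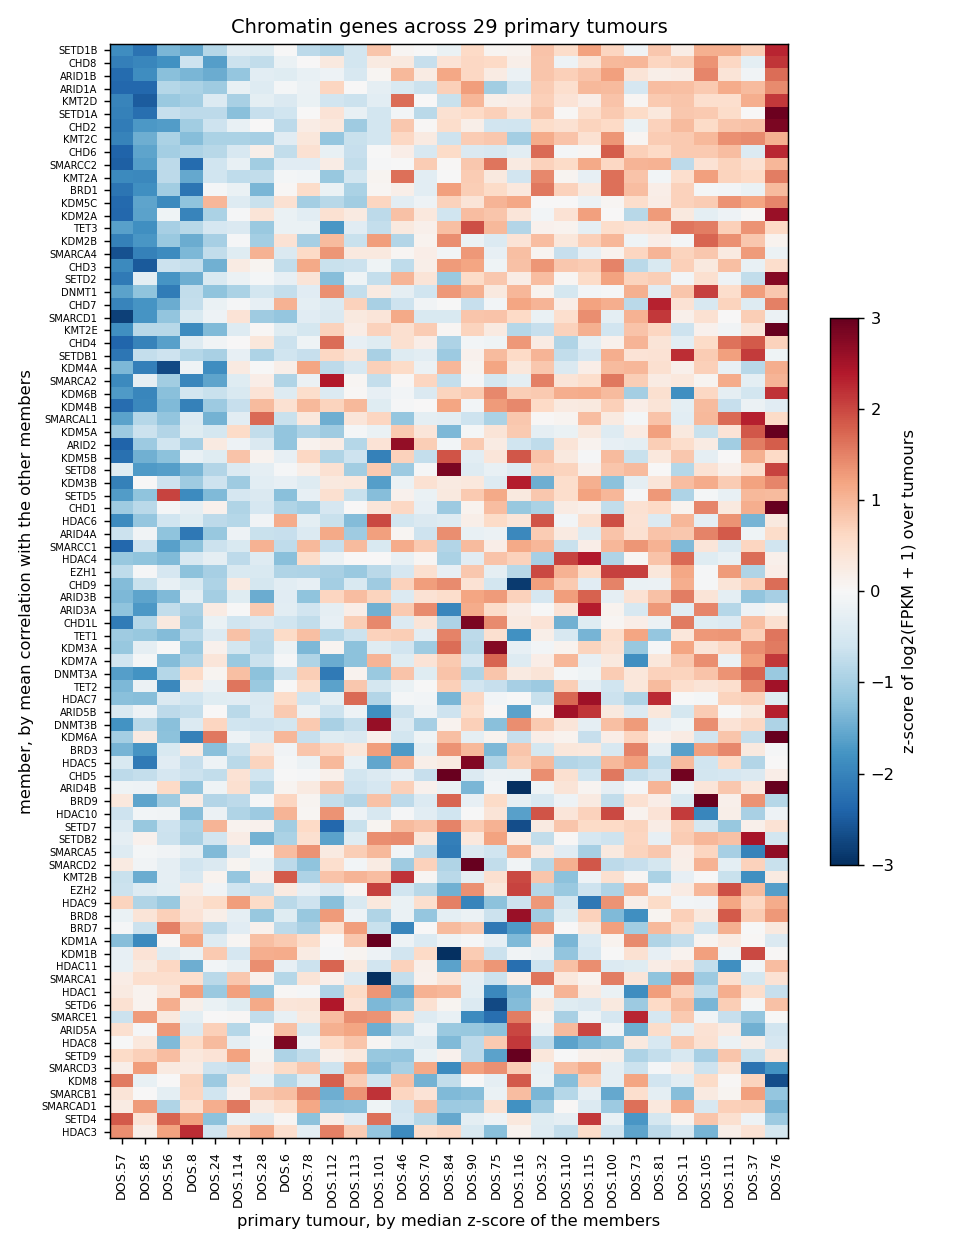
Values of 86 of the 87 tested chromatin genes in the 29 primary tumours, as z-scores of log2(FPKM + 1) per gene, with colours ending at -3 and 3. Genes are ordered from top to bottom by their mean correlation with the other members, and tumours from left to right by the members' median z-score: DOS.57 and DOS.85 stand at the low end, DOS.76 at the high end, and HDAC3 at the bottom runs against the genes at the top.

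Some of these genes varied together from tumour to tumour, as the heat map of z-scores shows. Over the 3741 pairs of members the median Pearson correlation across the 29 tumours was 0.182. It was above 0.5 in 555 pairs and below -0.5 in 38. These values were not computed over pairs of all genes, so whether they are particular to the chromatin genes was not tested. A set of 11 enzymes, remodellers and cofactors, taken by their mean correlation with the other members, correlated closely. It held KMT2A, KMT2C and KMT2D, the related methyltransferases SETD1A and SETD1B, the BAF subunits ARID1A, ARID1B and SMARCC2, and the remodellers CHD2, CHD6 and CHD8. Their 55 pairs had r between 0.605 and 0.908 with a median of 0.794. The set was chosen after its values were seen, so this is a description. The closest pairs were CHD8 with SETD1A (0.91), ARID1B with CHD8 (0.89) and KMT2A with KMT2D (0.88). HDAC3, the catalytic subunit of the NCoR and SMRT repressor complexes, correlated with the 11 genes at -0.717 to -0.217.

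A few tumours stood at the ends of this shared pattern. DOS.57 had the lowest value of 26 of the 87 members (29.89%) but of 6.83% of all genes, and DOS.85 the lowest of 14 (16.09%) but of 5.74% of all genes. DOS.76 had the highest value of 23 members (26.44%) and of 8.79% of all genes. KMT2D, for example, lay at 0.753 FPKM in DOS.57, 0.305 in DOS.85 and 16.03 in DOS.76, around a tumour median of 4.43. SETD1A lay at 1.97, 1.64 and 34.7 FPKM in the same tumours, around a median of 7.32. HDAC3 went the other way, with 44.8, 33.7 and 28.3 FPKM around a median of 32.9. The value of 1 sequenced fragment, estimated from the lowest FPKM values relative to the median library, was 0.875 in DOS.57, 0.845 in DOS.85 and 1.02 in DOS.76, within the range of 0.842 to 2.05 over the tumours. RNA quality is not given in the labels, and its part in this pattern was not tested.

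The lines were set against the primary tumours to ask which chromatin genes differ between tumour cells in culture and tumour tissue. Of the 87 members, 2 were higher in the lines and 6 lower (limma, Benjamini-Hochberg adjusted p below 0.05 over 15077 genes), against 16.4% of all genes called in either direction, 8.45% higher and 7.97% lower. Of the members, 9.2% were called. The higher genes were the BAF subunit SMARCD3 and the remodeller CHD5. The lower genes were the demethylases KDM7A, KDM6A and KDM3A, the cofactor ARID4A, the methyltransferase SETDB2 and the remodeller CHD1. The median difference was 0.21 over the members and -0.05 over all genes, and 55 members had a positive and 32 a negative difference, which became 48 and 39 with upper quartiles set equal between libraries and turned to 38 and 49 without OSCA.78. Without OSCA.78, a single member, KDM7A, passed the test, and without OSCA.8 there were 10.

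**Figure D2:**
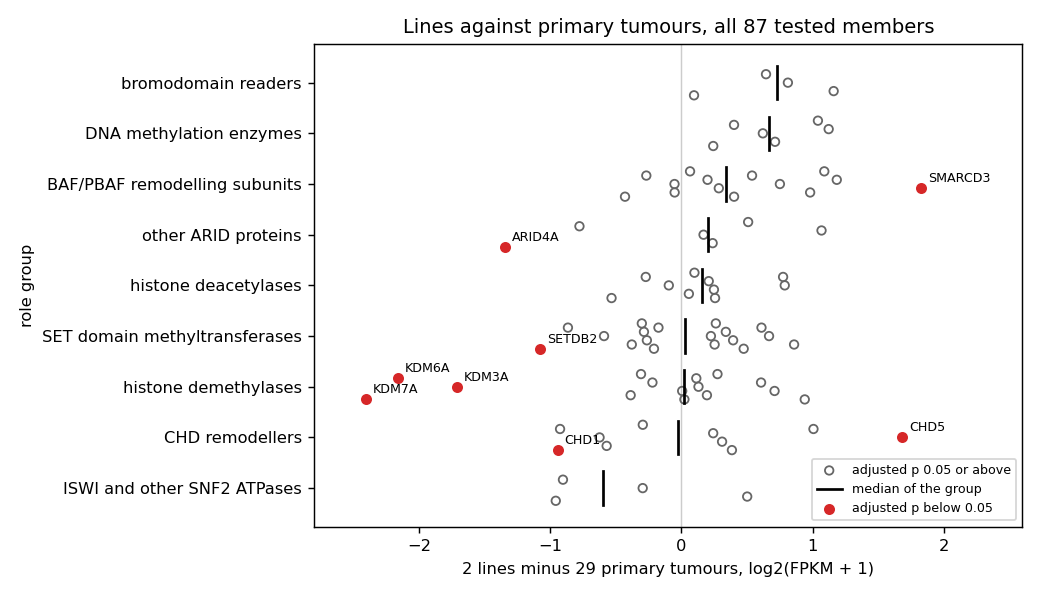
Difference between the 2 osteosarcoma lines and the 29 primary tumours in log2(FPKM + 1) for each tested chromatin gene, grouped by role; each circle is a gene, filled where the limma adjusted p is below 0.05, and each bar the median of a group. The 3 called demethylases lie farthest to the left, while the 6 DNA methylation enzymes all lie to the right of 0 without passing the test.

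Histone demethylases held the largest falls. KDM7A, which removes repressive methyl marks, measured 0.823 FPKM in line OSCA.78 and 1.34 in line OSCA.8. In the 29 tumours it ran from 4.62 to 22.6 FPKM with a median of 9.72. Both lines lay below every tumour, and the difference was -2.40 (SE 0.38, limma adjusted p = 3.73e-05). KDM6A, the X-linked demethylase that takes off the methyl groups EZH2 puts on, measured 1.71 FPKM in line OSCA.78 and 1.17 in line OSCA.8 against 3.25 to 54.2 in the tumours, with a median of 9.18, and the lowest tumour was DOS.8. Again the groups did not overlap, and the difference was -2.16 (SE 0.47, limma adjusted p = 0.00166). KDM3A, a demethylase of a heterochromatin mark whose gene is known to respond to low oxygen, measured 5.12 and 6.82 FPKM in OSCA.78 and OSCA.8 and 13.7 to 53.9 in the tumours, with a median of 21. The difference was -1.71 (SE 0.34, limma adjusted p = 0.00065), and both lines lay below all tumours. The other 12 demethylases were not called. Of the 15, 9 had a positive difference, which became 6 with upper quartiles set equal and also 6 without OSCA.78. Among them KDM6B, the paralog of KDM6A, had 17.4 FPKM in line OSCA.78 and 9.17 in line OSCA.8 against a tumour median of 5.80, a difference of 0.94 (SE 0.63, limma adjusted p = 0.327).

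The balance of KDM6A and KDM6B put these values together. The log2 ratio of the genes, each with 1 FPKM added, was -2.77 in OSCA.78 and -2.23 in OSCA.8, and it ran from -0.87 to 2.58 over the tumours with a median of 0.58. KDM6A was the higher gene of the pair in 19 of 29 tumours and KDM6B in 10. Both lines lay below every tumour, as did the osteoblast culture at -2.84. KDM6A and KDM5C have related copies on the Y chromosome, and how fragments of the copies were counted was not tested.

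BAF subunits, the core of the SWI/SNF remodelling machine, had a positive difference in 10 of 14, with a median of 0.34, which became 9 of 14 with upper quartiles set equal and 7 of 14, with a median of -0.03, without OSCA.78. SMARCD3, a BAF subunit found in heart and skeletal muscle, measured 65.5 FPKM in line OSCA.78 and 30.1 in line OSCA.8, and 3.84 to 22.3 in the tumours with a median of 13. Both lines stood above every tumour, and the difference was 1.83 (SE 0.46, limma adjusted p = 0.00564). The ATPase SMARCA4 had 84.7 FPKM in line OSCA.78 and 36.1 in line OSCA.8 against a tumour median of 25.05 and a maximum of 46.1, so only OSCA.78 lay outside the tumours. Its difference of 1.18 (SE 0.49) was not called (limma adjusted p = 0.0971). SMARCC2, with 55.1 and 32.2 FPKM against a median of 22.6, and SMARCD1, with 49.9 and 26.7 against 16.8, were also not called (limma adjusted p = 0.0652 and 0.0742). The alternative ATPase SMARCA2 had a difference of -0.05 (SE 0.41, limma adjusted p = 0.941). The log2 ratio of SMARCA2 to SMARCA4 was -2.02 in OSCA.78, below all tumours at -1.31 to 0.99, and -0.98 in OSCA.8, within them.

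The CHD remodellers were split, with 5 positive and 5 negative differences. CHD5, known mainly from neurons and as a tumour suppressor, was low in most tumours, with 0.00965 to 2.98 FPKM and a median of 0.152. It measured 7.67 FPKM in line OSCA.78 and 1.15 in line OSCA.8. The difference was 1.69 (SE 0.41, limma adjusted p = 0.00488), although OSCA.8 lay within the range of the tumours and the difference was 0.68 without OSCA.78 (limma adjusted p = 0.656). CHD1, a remodeller of transcribed genes, measured 1.99 FPKM in line OSCA.78 and 6.51 in line OSCA.8, against 5.81 to 22.5 in the tumours with a median of 8.12. Its difference of -0.94 (SE 0.31, limma adjusted p = 0.0345) came from OSCA.78: without that line it was -0.28 (limma adjusted p = 0.838). CHD9, at 1.79 and 3.49 FPKM against a median of 5.33, had a difference of -0.93 that was not called (limma adjusted p = 0.0519).

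**Figure D3:**
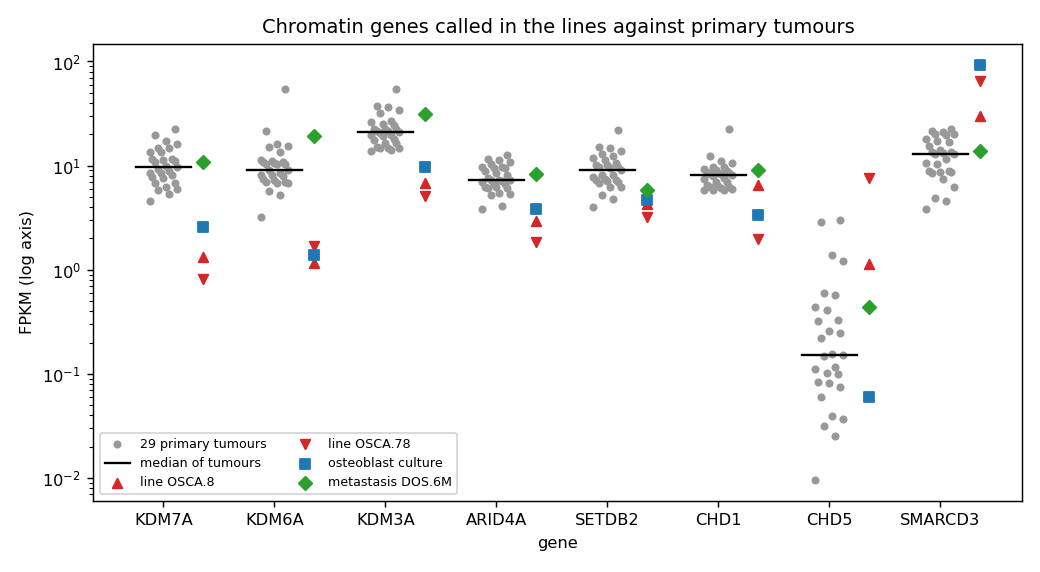
FPKM on a log axis of the 8 chromatin genes called in the lines against primary tumours. Grey points are the 29 tumours, the black bar their median, and the coloured symbols the lines, the osteoblast culture and the metastasis; for KDM7A, KDM6A, KDM3A and ARID4A both lines lie below every tumour, and for SMARCD3 above.

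The remaining called members were ARID4A and SETDB2. ARID4A, a protein that binds the retinoblastoma protein, had 1.84 FPKM in line OSCA.78 and 2.97 in line OSCA.8 against 3.86 to 12.8 in the tumours, a difference of -1.34 (SE 0.29, limma adjusted p = 0.00187) with no overlap. SETDB2, a relative of the heterochromatin methyltransferase SETDB1, had 3.20 and 4.32 FPKM against 4.04 to 21.8, a difference of -1.08 (SE 0.35, limma adjusted p = 0.0335), and OSCA.8 overlapped the lowest tumour. Counted by range alone, both lines lay above all tumours in 1 of 87 members (4.03% of all genes) and below all in 4 (7.33% of all genes).

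Enzymes of DNA methylation and bromodomain readers contained no called gene. All 6 of the former had a positive difference, with a median of 0.67, under each scaling tried, although DNMT3A turned to a negative value without OSCA.78. DNMT3B came closest, at 10.02 FPKM in line OSCA.78 and 4.08 in line OSCA.8 against 0.7497 to 8.17 in the tumours with a median of 2.11 (1.12, SE 0.41, limma adjusted p = 0.0537). DNMT1 had 77.4 and 49 FPKM against 13.2 to 63.3 (1.04, SE 0.38, limma adjusted p = 0.0564). OSCA.78 was above every tumour for both genes and OSCA.8 was not. The 4 bromodomain readers had positive differences with a median of 0.73, except that BRD8 turned to -0.02 with upper quartiles set equal and to -0.24 without OSCA.8, and BRD1 to -0.06 without OSCA.78. BRD3, a reader of acetylated histones, had 59.7 FPKM in line OSCA.78 and 25.8 in line OSCA.8 against 11.96 to 36.3 in the tumours (0.81, SE 0.36, limma adjusted p = 0.113).

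Among deacetylases and SET domain enzymes a single gene was called. None of the 10 HDAC genes was called, and their differences ran from -0.53 for HDAC9 to 0.79 for HDAC7. Of the 18 SET domain methyltransferases, 9 had a positive and 9 a negative difference, and SETDB2 alone was called. EZH2 measured 20.8 FPKM in line OSCA.78 and 10.4 in line OSCA.8 against a tumour median of 8.77, a difference of 0.47 (SE 0.63, limma adjusted p = 0.639). The 2 lines moved apart from each other for many members: the members' median difference from the tumours was -0.08 for OSCA.8 alone and 0.47 for OSCA.78 alone.

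Other values moved with this contrast. Endothelial genes were also near 0 in the lines apart from EGFL7, with PECAM1 at 0.125 FPKM in line OSCA.78 and 0.0815 in line OSCA.8 against 11.9 to 490 in the tumours, and 12 of the 14 macrophage genes were called lower. Both epithelial genes of the marker list that had a row, EPCAM and ESRP1, were called higher, with a sum of 64.6 FPKM in line OSCA.78 and 11.45 in line OSCA.8 against 0.154 to 10.99 in the tumours. The cell cycle score, the mean z-score of 22 proliferation genes relative to the tumours, was 1.41 for OSCA.78 and 0.71 for OSCA.8 against -1.62 to 1.58 in the tumours. With that score as a covariate, 7 of the 8 called members were still called, CHD1 being the exception (limma adjusted p = 0.0735). The part of these marker levels in the members' differences was not tested.

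Within the primary tumours the members were regressed on 3 scores, of the cell cycle, macrophages and bone matrix. The first was chosen since EZH2 and the DNA methyltransferases are known to be made by dividing cells. Of 87 members, 2 rose with the score and 2 fell (limma, adjusted p below 0.05 over 14955 genes), against 9.9% of all genes (5.02% rising and 4.89% falling). EZH2 rose by 0.64 per SD of the score (SE 0.12, limma adjusted p = 3.96e-04). Its highest values, 39.9 FPKM in DOS.101 among them, lay in tumours with a score above 0, and its lowest, 3.03 FPKM, in DOS.76 with a score of -1.54. Pearson's r was 0.711 (permutation p = 3e-05) and Spearman's rho 0.734 (permutation p = 1e-05, the smallest 100000 permutations can give). Without DOS.115 and DOS.76, the tumours with the scores farthest from the median, r was 0.684.

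DNMT3B, which sets new DNA methylation, was the other member that rose, by 0.32 per SD (SE 0.09, limma adjusted p = 0.0184; r = 0.585, permutation p = 0.00088; rho = 0.546, permutation p = 0.00255; r without the same 2 tumours 0.596). DNMT1 had a slope of 0.19 (limma adjusted p = 0.215) and was not called. ARID5B fell by 0.44 per SD (SE 0.12, limma adjusted p = 0.0159). Its Pearson r was -0.571 (permutation p = 0.00111), but rho was -0.369 (permutation p = 0.0501) and r without the 2 tumours -0.374. HDAC11, the sole class IV deacetylase, fell by 0.31 per SD (SE 0.10, limma adjusted p = 0.0396), with r = -0.523 (permutation p = 0.00375), rho = -0.537 (permutation p = 0.00288) and r = -0.442 without the 2 tumours. With DOS.100 and DOS.32, and DOS.110 and DOS.115, each averaged, EZH2 and DNMT3B were still called and ARID5B and HDAC11 were not (limma adjusted p = 0.0674 and 0.0807). The same pair of genes also missed the threshold without DOS.57, DOS.85 and DOS.76 (limma adjusted p = 0.0556 and 0.0642).

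**Figure D4:**
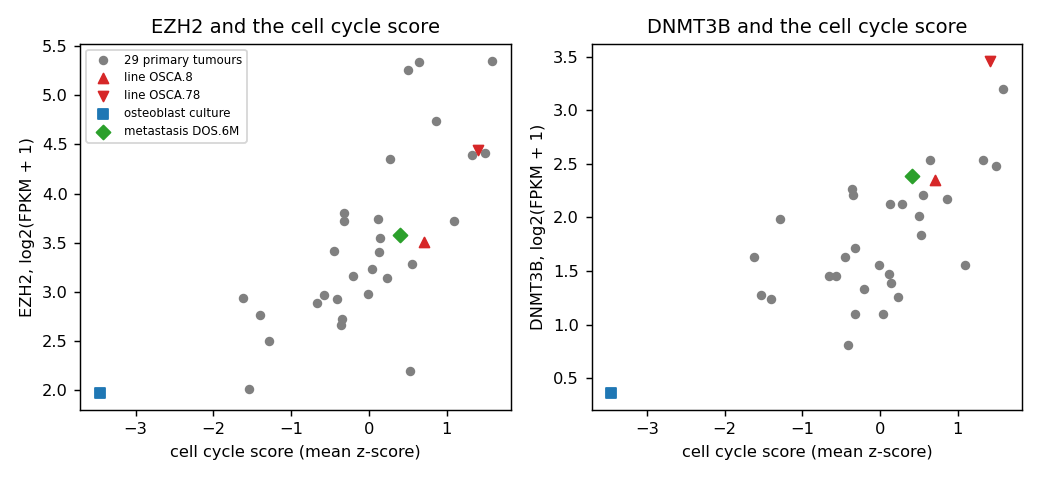
EZH2 (left) and DNMT3B (right) in log2(FPKM + 1) against the cell cycle score, the mean z-score of proliferation genes. Grey points are the 29 primary tumours, over which r was 0.711 for EZH2 and 0.585 for DNMT3B; the osteoblast culture at a score of -3.46 lies at the lower left of both plots and the lines at 0.71 and 1.41 lie among or above the tumours.

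The genes most like EZH2 across the 29 tumours, among 11699 genes with a symbol, were CASP2 (r = 0.861), CCNE2 (0.832), CENPU (0.81), FANCI (0.803) and RRM2 (0.802). CCNE2 is a cyclin of the entry into S phase, CENPU a centromere protein, FANCI a DNA repair protein and RRM2 a subunit of the enzyme that makes deoxynucleotides, which is also a gene of the cell cycle score. CASP2, a caspase, is a chromosomal neighbour of EZH2 on chromosome 16 in the RefSeq gene order of the dog assembly UU_Cfam_GSD_1.0. CENPU is also placed on chromosome 16. These are descriptions over libraries that share the same processing.

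The macrophage score, made in the same way from 14 genes, moved with 1 of 87 members, against 5.57% of all genes (3.97% rising and 1.6% falling). KDM4B, a demethylase of heterochromatin marks, fell by 0.33 per SD (SE 0.10, limma adjusted p = 0.042; r = -0.54, permutation p = 0.00237; rho = -0.575, permutation p = 0.00116). Its r was -0.544 without DOS.100 and DOS.32, the tumours farthest from the median score. The call was lost with the alike pairs averaged (limma adjusted p = 0.0549) and without DOS.57, DOS.85 and DOS.76 (limma adjusted p = 0.0752). No member passed for the bone matrix score of 8 genes in limma (5 of 87 at an unadjusted p below 0.05), where 0.822% of all genes passed (0.736% rising and 0.0869% falling). The closest were SETD4, a SET domain protein, with -0.30 per SD (limma adjusted p = 0.11), and HDAC9 with 0.47 (limma adjusted p = 0.158). The scores themselves were weakly related, with r between -0.272 and -0.137.

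EZH2 acts within PRC2, together with EED and SUZ12, so the other genes of that complex were read beside it. EED, the subunit that binds the mark EZH2 makes, was listed at 0 in OSCA.78 and at 0.0145 FPKM in OSCA.8. In the tumours it ran from 0.692 to 29.9 FPKM with a median of 13.7, and the osteoblast culture had 14.9. Both lines lay below every tumour, with a difference of -3.56 on the log2(FPKM + 1) scale (SE 0.75, limma adjusted p = 0.00141), and without OSCA.78 the adjusted p was 0.077. SUZ12 measured 8.05 FPKM in line OSCA.78 and 14.04 in line OSCA.8 against a tumour median of 10.8 (0.03, limma adjusted p = 0.97). EED was the 1 gene called in the lines among the 9 PRC2 genes listed beside EZH1 and EZH2. A value of 0 was rare among genes with a tumour median of at least 10 FPKM, though EED was not the only case. For line OSCA.78 it was listed for 33 of 6933 such genes, and for line OSCA.8 the count was 25.

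The genes next to EED were low in the same libraries. Of the 10 nearest tested neighbours on chromosome 21, in RefSeq gene order, 8 were called lower in the lines in limma, against 0 to 2 lower neighbours of 10 for each of the 8 called members. PICALM, a clathrin adaptor gene, had 0.0197 FPKM in line OSCA.78 and 0.0469 in line OSCA.8 against 3.34 to 106 in the tumours. PRSS23 had 0.0787 and 0.0740 FPKM against 1.56 to 316, and TMEM135 was listed at 0 in both lines against a lowest tumour of 1.21. Past SYTL2 the lines parted: TMEM126B was listed at 0 in OSCA.8 and had 35.1 FPKM in OSCA.78, within the tumours. Among the tumours EED was lowest in DOS.100 (0.692 FPKM), DOS.32 (0.755) and DOS.116 (1.04), and the next was DOS.78 at 4.39. PICALM was lowest in the same tumours, at 4.804, 3.342 and 4.403 FPKM, and correlated with EED at r = 0.94 over the 29 tumours. The low values were not confined to these libraries. The metastasis DOS.6M lay below the tumour median for each gene from RAB38 to TMEM126B, with EED at 4.13 FPKM and PICALM at 12.9. The tumour DOS.8 had 4.74 and 14.9 FPKM of the same genes. DOS.100, DOS.32 and DOS.116 also had the lowest macrophage scores, -1.71, -1.50 and -1.48, whose part in these low values was not tested. DOS.100 and DOS.32 were the most alike pair of tumour libraries (r = 0.844), so they may not count as separate cases here.

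**Figure D5:**
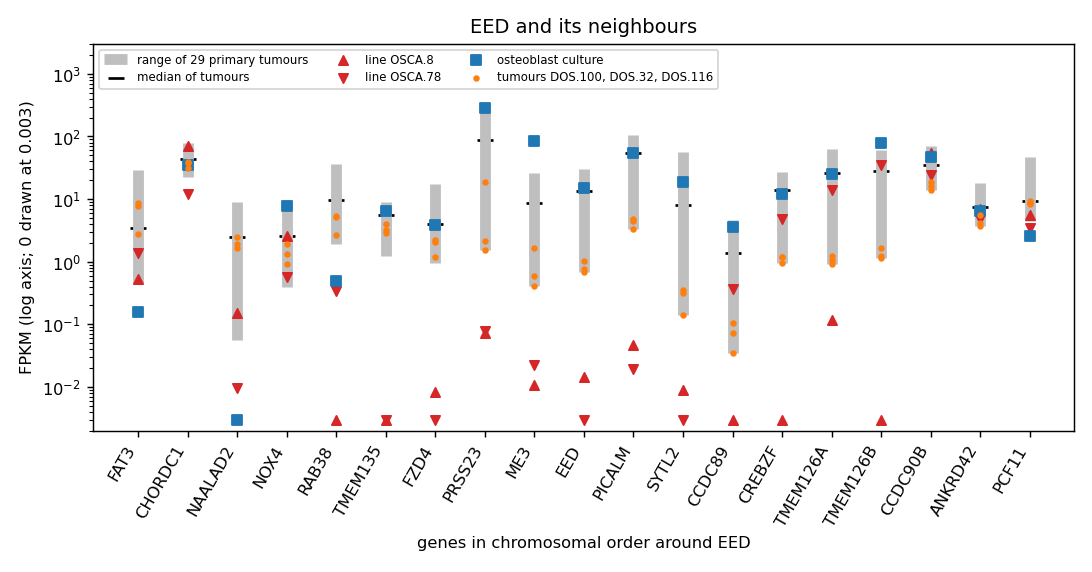
FPKM on a log axis of EED and its chromosomal neighbours, in RefSeq gene order, for genes with a tumour median of at least 1 FPKM; values of 0 are drawn at 0.003. Grey bars span the 29 primary tumours with the median as a black tick; both lines fall far below the bars from TMEM135 to SYTL2, and the tumours DOS.100, DOS.32 and DOS.116 lie at the foot of the bars from ME3 to TMEM126B.

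Other chromosomal neighbours of the members could be read for coexpression too. With 10 genes on each side, the median correlation of a member with its neighbours across the tumours had a median of 0.273 over the 86 members placed and 0.188 over 10789 genes. It was above 0.3 for 35 of the 86 members and for 23.7% of all genes. SETDB2 on chromosome 22 had the highest value at 0.529. KDM2B on chromosome 26 followed at 0.458, and its closest neighbour was another chromatin gene, SETD1B, at r = 0.725. SETD5 on chromosome 20 correlated at 0.89 with BRPF1, which encodes a bromodomain and PHD finger protein of histone acetylation complexes. ARID5A on chromosome 17 had the lowest value, -0.263.

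The single osteoblast culture gives values without a replicate. Its summed FPKM of 1418308 was the highest of all libraries, against a median of 623084, and its 15328 genes above 0 were the fewest. The culture's values were not rescaled, and the part of this in its differences from the tumours was not tested. It lay above all 29 tumours for 13 of 87 members (21.9% of all genes), below all for 10 (19.6% of all genes) and within them for 64. SMARCD3 stood highest above the tumour mean, with 93.0 FPKM and a difference of 2.88, followed by ARID5B (21.4 FPKM, 2.07), KMT2B (207 FPKM, 1.72), HDAC9 (18.6 FPKM, 1.56) and the BAF subunit SMARCD2 (37.04 FPKM, 1.53). The same library had 707.9 FPKM of ACTA1, the actin of skeletal muscle. The 4 muscle genes with a row summed to 708.5 FPKM there and to 1.304 to 261 in the tumours. In the culture nearly all of that sum was ACTA1, and 1 of the other muscle genes was at 0. The part of ACTA1 in the SMARCD3 value was not tested. Farthest below the tumour mean were KDM6A (1.40 FPKM, -2.18), KDM7A (2.56 FPKM, -1.62), EZH2 (2.92 FPKM, -1.53), SMARCA1 (6.14 FPKM, -1.43) and DNMT3B (0.285 FPKM, -1.42). SMARCA1 was the exception among these 5 in lying within the tumours, above 1 of them.

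For EZH2 and DNMT3B the osteoblast culture lay below all 29 tumours, both lines and the metastasis, and its cell cycle score of -3.46 was also below theirs. DNMT1 did not follow, at 81.8 FPKM against 13.2 to 63.3 in the tumours. EZH1, the paralog of EZH2 known from cells that do not divide, measured 8.69 FPKM there, so that the log2 ratio of EZH1 to EZH2 was 1.31, near the highest tumour at 1.33. In the tumours that ratio ran from -3.25 with a median of -0.79, and EZH2 was the higher gene in 22 of 29. It was -1.93 in OSCA.78 and -1.27 in OSCA.8. All 6 members called lower in the lines lay below the tumour mean in the osteoblast culture as well, and of the 2 called higher SMARCD3 lay above it and CHD5, at 0.0598 FPKM, below. The culture's median difference from the tumour mean was itself negative, -0.198 over the tested members and -0.149 over all genes. The share among all genes called lower in the lines was not computed. The comparisons of the lines and of the culture share the same tumours.

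The metastasis DOS.6M was read against the primary tumour with the same title number, DOS.6, although the labels do not say that they come from the same animal. Of 87 members, 59 were higher in the metastasis and 28 lower, with a median difference of 0.15 against -0.002 over all genes. The 8 bone matrix genes summed to 4377 FPKM in the metastasis, below the lowest tumour at 6862, with a bone matrix score of -1.25 against a lowest tumour of -1.14; the part of this in the members' values was not tested. The difference passed 1 on the log2 scale for 2 members. The shares of all genes that were higher in the metastasis, or that passed 1, were not computed. KDM5B, a demethylase that removes marks of active promoters, had 66.7 FPKM in the metastasis and 22.6 in DOS.6, above the highest tumour at 58.6, and SETD5 had 30.05 and 13.6. DNMT3B (4.24 and 1.78 FPKM), the developmental remodeller CHD7 (8.71 and 4.36) and CHD4 (64.9 and 36.3) had the next largest positive differences. On the other side were KMT2B (58.6 and 94.2 FPKM), HDAC7 (16.1 and 25.6), DNMT1 (15.7 and 22.5), SMARCA2 (9.64 and 13.4) and SMARCC1 (13.8 and 17.4). Nothing about the spread between metastases follows from 1 library.

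In 6 of 87 members the metastasis lay above all 29 tumours (4.9% of all genes) and in 0 below all (3.55% of all genes). The 6 were CHD7, KDM5B, TET1 and the X-linked genes HDAC6, HDAC8 and KDM5C. HDAC6, a deacetylase of the cytoplasm, had 44.8 FPKM against 37.2 in the highest tumour, and HDAC8, a class I deacetylase, 28.7 against 19.8, the latter in DOS.6 itself. KDM5C had 64.0 against 61.9. The other X-linked members were KDM6A, at 19.4 FPKM and above 27 tumours, and SMARCA1, at 13.7 and above 9. All 5 X-linked members were higher in DOS.6M than in DOS.6, by 0.25 to 0.75, but so were 59 of all 87 members. The grouping by X linkage was not planned, and the share over all X-linked genes was not computed.

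Paralogs differed in how steady their balance was. Which gene of a pair is the higher also depends on the transcript models and the masking, which are not known here. KMT2A was lower than KMT2B, HDAC4 lower than HDAC5, KDM5A lower than KDM5B and SMARCA1 lower than SMARCA5 in all 29 tumours, and DNMT1 was higher than DNMT3A and SETD1A higher than SETD1B in all 29. CHD3 exceeded CHD4 in 11 tumours and was lower in 18, and BRD7, a PBAF subunit, exceeded BRD9, a subunit of the non-canonical BAF complex, in 9. ARID1A exceeded its alternative ARID1B in 24. The pairs SETD1A with SETD1B (r = 0.79), KMT2C with KMT2D (0.85) and ARID1A with ARID1B (0.78) rose and fell together across tumours, while r was -0.08 for EZH1 with EZH2, -0.13 for HDAC4 with HDAC5 and -0.10 for SMARCD1 with SMARCD3.

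Chromatin genes outside the named families were taken from a list of 161 symbols, of which 134 had a row and 131 were tested. In the lines 5 were higher and 9 lower, with a median difference of 0.13, against 8.45% higher and 7.97% lower over all genes. Among these were the Polycomb gene CBX2 (30.1 FPKM in line OSCA.78 and 10.7 in line OSCA.8, tumour median 4.13; 1.996, limma adjusted p = 0.0265) and the methyltransferase PRMT6 (31.6 and 16.6, median 7.56; 1.40, limma adjusted p = 0.0068). The lower genes included EED, the demethylase relative JMJD1C (3.04 and 2.97, median 11.3; -1.64, limma adjusted p = 0.0113), the BAF subunit SS18 (9.97 and 19.3, median 35.7; -1.28, limma adjusted p = 0.00305) and the remodeller ATRX (2.49 and 5.29, median 9.87; -1.22, limma adjusted p = 0.00207). CBX2 was not called with the cell cycle score as a covariate (1.23, limma adjusted p = 0.0993). Without OSCA.78 none of CBX2 (1.29), PRMT6 (0.95), JMJD1C (-1.66), SS18 (-0.83) and ATRX (-0.79) was called, with limma adjusted p from 0.212 to 0.589, and JMJD1C was not called without OSCA.8 either (limma adjusted p = 0.0829). With the cell cycle score 16 rose and 5 fell, against 5.02% and 4.89% of all genes. UHRF1, which brings DNMT1 to replicated DNA, rose by 0.76 per SD (limma adjusted p = 4.63e-08), the remodeller HELLS by 0.63 (limma adjusted p = 2.24e-07) and SUZ12 by 0.31 (limma adjusted p = 0.0201). The Polycomb gene CBX7 fell by 0.44 (limma adjusted p = 7.68e-04).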

How the data were processed

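The deposited table holds 1 value per gene and library. No unit stands in its header. The authors' deposited values were taken to be FPKM, since the tools in the submitters' processing notes are FastQC 0.11.2, TopHat2 2.0.13 and Cufflinks 2.2.1, with canFam3 as the genome build. The sources used here give neither the order of steps nor the annotation nor what was masked. The kit named in the labels does not mark strand, so overlapping antisense genes cannot be told apart.

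Differences are on log2(FPKM + 1), which understates changes of low genes. Genes needed at least 1 FPKM in at least 2 libraries of a fit. Fits used limma 3.58.1 in R 4.3.3 (trend and robust, two-sided) with Benjamini-Hochberg adjustment over all genes at 0.05. They were run on simulated data in which genes varied independently and the lines spread like the tumours. That run cannot show how the calls hold with correlated genes, alike libraries or lines that differ from each other. Correlations used 100000 permutations (Python 3.11.15, scipy 1.17.1). Of 14335 symbols, 13096 were found in the RefSeq table (87 of the 88 members, SETD8 not), which gave gene order only, since its build differs. Named genes were the called members, the 8 most variable, the 5 largest differences per direction in single libraries, the largest calls in other chromatin lists and the 5 genes most like EZH2. The values of 1 member, among those 8, are not reported here. The EED region and the set of 11 were chosen after their values were seen. The members and lists were chosen with earlier results of these data known.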

Additional observations from a re-analysis of the deposited data

How the results depend on the processing

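Over the alternatives tried for named genes (pseudocount, filter, scaling, handling of alike libraries, covariate, limma options, lines left out and the replicate block), 326 values kept direction and side of the threshold, 64 lost the call, 17 gained it and 1 reversed. EZH2 in the lines turned from 0.47 to -0.34 (limma adjusted p = 0.684) with the cell cycle score as a covariate. The count of members called in the lines, 8, was 1 to 10 when either line was left out, where the remaining line is assumed to vary like the tumours. Calls over all genes fell from 2475 to 310 without OSCA.78. With the title number as a replicate block (OSCA.8 with DOS.8, OSCA.78 with DOS.78), 0 members and 0 genes were called in limma (22 members and 3176 genes at an unadjusted p below 0.05). The labels do not say that the numbers pair the samples. Deviations of each line from the mean of the 2 lines were correlated with deviations of each tumour from the tumour mean. For the tumour with the same number r was 0.165 for OSCA.78 and 0.195 for OSCA.8, rank 2 and 4 of 29 tumours. With 2 lines these deviations mirror each other, so the 2 values are not independent and cannot settle the pairing. Other settings gave 7 to 12 called members. CHD1 and SETDB2 lost their calls with quantile normalisation (limma adjusted p = 0.0537 and 0.0569), and SETDB2 without OSCA.8 (0.0893). For the cell cycle score the count went from 4 to 2 with the alike pairs averaged. HDAC11 also missed without a filter (limma adjusted p = 0.0584) and with quantile normalisation (0.0834). The macrophage count went from 1 to 0 without a filter, with the pairs averaged and without DOS.57, DOS.85 and DOS.76, with 10, 4 and 8 members at an unadjusted p below 0.05 in limma. The count of members among the 10% most variable genes went from 1 to 0 with a pseudocount of 0.1. The cause of these changes was not tested. Averaging the alike pairs and leaving out the 3 tumours were chosen after seeing the data. Of all genes called in the lines, 51.5% were higher, which became 40.6% with upper quartiles set equal and 40.4% with a pseudocount of 0.1. For the cell cycle, macrophage and bone matrix scores the shares of 50.6%, 71.3% and 89.4% became 61.2%, 59.2% and 77.8% with quantile normalisation, and 84.3% for macrophages with the pairs averaged. Calls over all genes went from 833 to 415 for the macrophage score with the pairs averaged, and from 123 to 194 for the bone matrix score with DOS.46 and DOS.46.2 kept separate. Depth in reads is unknown, so low values such as CHD5 carry no counting interval, and with 2 lines the spread comes almost wholly from the tumours.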
